A study of Saccharomyces cerevisiae with 12 samples.

Results

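The 26S proteasome is the ATP-driven protease that degrades ubiquitin-tagged proteins, and RPN4 encodes the transcription factor that sets the expression of its genes in yeast. The transcripts described here are those of 32 subunit genes and of RPN4, 33 of the 6660 features in the deposited count table, taken by gene identifier from the known composition of the complex, with earlier results of these data known. They are 7 subunits of the alpha ring, 7 of the beta ring, the 6 ATPases of the base, 4 other base subunits and ubiquitin receptors, 8 lid subunits, and RPN4. All 33 had enough counts to be tested. They were measured in BY4743, a diploid laboratory strain of Saccharomyces cerevisiae, as the wild type (WT), as a strain labelled atg1Δ (atg1) and as a strain labelled atg41Δ (atg41), with 4 libraries each. Autophagy is initiated by the protein kinase that ATG1 encodes, and ATG41, also called ICY2, encodes a protein needed for full autophagy. Every culture, WT included, had been moved from zinc-replete to zinc-limiting medium for 8 h at 30 °C, so no zinc-replete library enters a comparison. Whether libraries of the same strain represent different cultures or 1 clone is not given in the labels, so p-values measure the spread between these libraries, which may be partly technical.

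Substrates are unfolded by a ring of ATPases in the base of the regulatory particle, stripped of ubiquitin by the lid, and cut inside a barrel of alpha and beta rings, the core particle. Rpn4 is a short-lived activator that the proteasome itself degrades. When proteasome activity falls, Rpn4 accumulates and raises transcription of proteasome genes through a promoter sequence called the proteasome-associated control element, which closes a feedback loop. Whole proteasomes are in turn delivered to the vacuole by autophagy in starved yeast, a route that needs Atg1. One lid subunit, Rpn11, is a zinc-dependent deubiquitinase.

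The control element was searched as GGTGGCAAA on both strands of the 500 bases before each start codon, in RefSeq R64. It was present in 27 of the 33 windows (81.8%) and in 99 of all 6019 windows (1.64%). With only its first 8 letters, GGTGGCAA, the counts were 27 and 143 (2.38%). No window of these genes held more than 1 match. The centres of the 27 matches lay 80 to 179 bases before the start codon, with a median of 116.0, and 19 were on the strand of the gene. Below are the matches of the genes whose values are given by library further on, written 5′ to 3′ on the stated strand of R64 with the 9 letters in capitals.
RPT3, chrIV:1261495-1261523, plus strand: ctgaaagtaaGGTGGCAAAatagtaaatc
RPT6, chrVII:411352-411380, minus strand: atgcgagcgaGGTGGCAAAagttgtaata
RPT2, chrIV:437906-437934, plus strand: gtttttctccGGTGGCAAAtgtctctttt
PUP2, chrVII:999226-999254, minus strand: aaccaagaccGGTGGCAAAagagtaacct
RPN11, chrVI:153259-153287, plus strand: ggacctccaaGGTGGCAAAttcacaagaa
PUP3, chrV:349511-349539, minus strand: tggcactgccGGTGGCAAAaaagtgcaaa
RPN2, chrIX:220801-220829, minus strand: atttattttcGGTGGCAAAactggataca

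The 6 genes with no exact match were PRE5, PUP1, RPN8, RPN10, RPN13 and RPN4 itself. The first 5 of these held the 9 letters with 1 substitution, and RPN4 did not. Among all windows, 743 (12.3%) held the letters with at most 1 substitution, so a near match is much more common than an exact one. The near matches are shown because RPN10 and RPN8 are among the genes that changed most. Positions count from 1 at the 5′ end of the 9 letters, which are in capitals, and the letter of GGTGGCAAA comes first in each substitution: G1A in PRE5, PUP1 and RPN8, and A7G in RPN10 and RPN13.
PRE5, chrXIII:901552-901580, plus strand: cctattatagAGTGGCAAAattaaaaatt
PUP1, chrXV:631891-631919, minus strand: aacccggccgAGTGGCAAAataccaaaaa
RPN8, chrXV:817085-817113, minus strand: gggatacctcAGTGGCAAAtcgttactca
RPN10, chrVIII:498968-498996, minus strand: tgtaaattccGGTGGCGAAaacccgcctg
RPN13, chrXII:965656-965684, minus strand: ttattcgcgaGGTGGCGAAagctttgcta

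Library totals ran from 9623157 to 11247182 expected counts, and the test covered 6195 genes. ATG1 had 0 counts in all 4 atg1 libraries, and ATG41 had 0 counts in 3 atg41 libraries and 1 count in the other. Of 12 mating-type genes that an a/alpha diploid represses, 2 had too few counts to be tested, and the other 10 had WT means of 1.04 to 76.1 CPM (counts divided by the TMM-scaled library size), 8 of them under 20 CPM. In a principal component analysis of log2 CPM, the 4 atg41 libraries lay apart on component 1, which carried 65.8% of the variance. Replicate 1 of atg1 stood apart from the other atg1 libraries: its count differences from them gave 32.7 to 54.7 as chi-square divided by the number of genes, where other replicate pairs gave 3.40 to 9.03.

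In atg41, most proteasome genes moved little. With TMM scaling (trimmed mean of M values) more were higher than lower than in WT. That majority ended with equal library totals, a scaling that lowered genes in general as well. Of the 33 genes, 20 (60.6%) passed the edgeR quasi-likelihood test at an adjusted p under 0.05, beside 65.9% of all genes tested, so the share that changed was close to the background. By direction, 16 (48.5%) were higher, beside a background of 29.9%, and 4 (12.1%) were lower, beside 35.9%. The median log2 fold change was 0.12 for these genes and -0.04 for all genes, and 23 of the 33 values were positive. None of the 33 reached a doubling or a halving, a size that 11.1% of all genes passed. The SD of their log2 fold changes was 0.27 against 0.75 for all genes. The latter is widened by extreme values, from -14.2 to 8.72, and the quartiles of all genes were -0.39 and 0.27. Poly-A counts are shares of a library, so more transcript per cell and a larger share of a smaller pool cannot be told apart.

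The direction of the small changes depended on the scaling of the libraries. With equal library totals in place of TMM factors, the median of all genes was -0.17 and that of the 33 genes -0.02. Of the 33 genes, 9 were called higher and 9 lower. The shares of all genes called in each direction are given here with TMM factors only, so these counts have no background beside them. The distance between the 2 medians was 0.15 under both scalings, so the change of scaling moved both alike. The end of the majority is therefore not a result particular to the proteasome genes. SCL1, PRE8, PUP1, PRE1, PRE7, RPT1, RPT4, RPN9 and RPN4 had positive values with TMM factors and negative ones with equal totals. The 12 genes called under every alternative tried were PRE5, PRE10, RPT3, RPT5, RPT6, RPN1, RPN10, RPN6 and RPN7, all higher in atg41, and PRE9, PUP3 and RPN8, all lower.

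**Figure D1:**
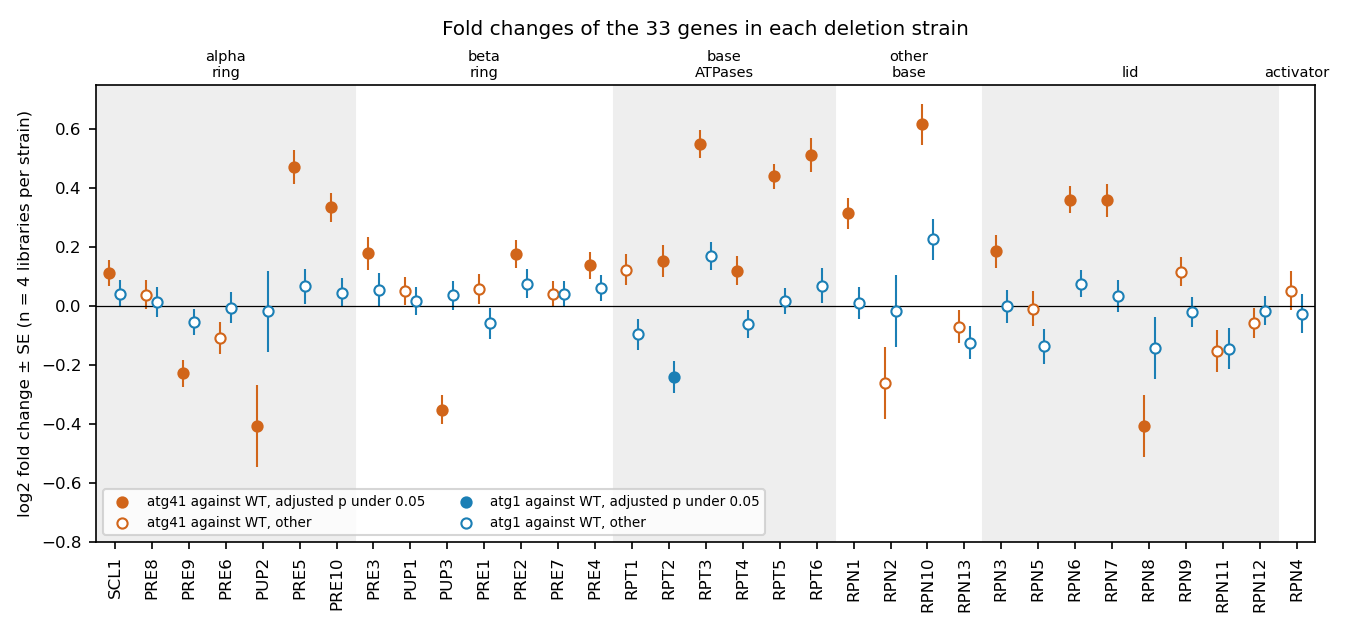
Log2 fold change ± SE of the 33 genes in atg41 against WT (orange) and atg1 against WT (blue), n = 4 libraries per strain, by position in the complex. Filled points had an adjusted p under 0.05 in edgeR; 20 did in atg41 and 1, RPT2, in atg1, and the values of 9 genes close to 0 in atg41, RPT1 and RPT4 among them, turn negative with equal library totals.

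**Figure D2:**
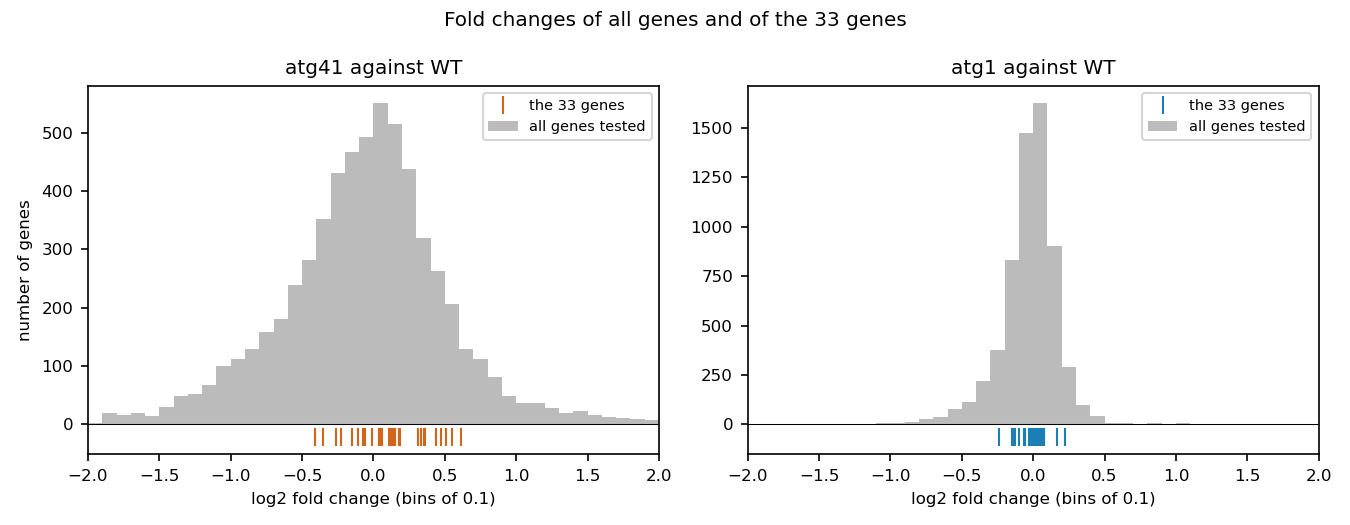
Number of genes tested per bin of 0.1 in log2 fold change (grey bars), with the 33 genes as ticks below. Values beyond 2 in either direction are not drawn. In atg41 against WT the 33 genes lie between -0.41 and 0.61, inside a much wider distribution, and in atg1 against WT between -0.24 and 0.22.

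RPN4 was not called in any of the 3 comparisons. Its WT libraries had 113, 111, 121 and 116 CPM in order of replicate. The atg1 libraries had 113, 113, 119 and 107 CPM, and the atg41 libraries had 130, 127, 103 and 117 CPM. The 3 groups overlapped, and the atg41 libraries were the most spread, holding both the highest and the lowest value of the 12. The log2 fold change was 0.05 ± 0.07 (SE) in atg41 against WT (edgeR adjusted p = 0.517) and -0.03 ± 0.07 in atg1 against WT (edgeR adjusted p = 0.849). In atg41 against atg1 it was 0.08 ± 0.07 (edgeR adjusted p = 0.321), and without atg41 replicate 3, the lowest library, it was 0.14 (edgeR adjusted p = 0.0381), where it was called. Rpn4 protein was not measured.

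The window before RPN4 (YDL020C, chromosome IV, 415113 to 416708 on the minus strand) held no control element but held elements of factors known to activate RPN4. These were 1 match to the Yap1 element TTACTAA, 2 to the Pdr1 and Pdr3 element TCCGNGGA, where N is any base, and 2 to the heat shock element of Hsf1. The share of all windows with at least 1 match was 11.8% for TTACTAA, 2.91% for TCCGNGGA and 1.48% for the heat shock element. The other Yap1 element searched, TTAGTCA, had no match here and one or more in 5.95% of all windows. The matches are shown with the element in capitals and the distance of its centre from the start codon in bases. They are matches of letters only, and binding was not measured.
Yap1 element, 371 bases before, chrIV:417066-417092, minus strand: gtgatcgctaTTACTAAtagccgttta
Pdr1 and Pdr3 element, 438 bases before, chrIV:417133-417160, minus strand: aataacaagtTCCGTGGAactcaaagaa
Pdr1 and Pdr3 element, 395 bases before, chrIV:417090-417117, plus strand: cacgtgattaTCCGTGGAaaggttcgta
heat shock element, 342 bases before, chrIV:417036-417064, plus strand: ccgaaacgGAACTTTCTAGAAccatcact
heat shock element, 15 bases before, chrIV:416709-416737, plus strand: gattgcttGAAAATTCTAGAAaacttttg

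The ATPases of the base, which unfold substrates and open the gate of the core, had 5 of 6 members higher in atg41 than in WT and none lower. Of all genes tested, 29.9% were called higher and 35.9% lower. All 6 windows held the control element. RPT3 (YDR394W, chromosome IV, 1261681 to 1262967, plus strand) had 191, 178, 182 and 182 CPM in WT, 210, 214, 192 and 208 CPM in atg1 and 267, 275, 263 and 266 CPM in atg41. Every atg41 library lay above every library of the other strains, and each atg1 library lay above the WT libraries. Its log2 fold change in atg41 was 0.55 ± 0.05 (edgeR adjusted p = 2.09e-07), a 1.46-fold rise. In atg1 it was 0.17 ± 0.05 (edgeR adjusted p = 0.0650), which missed the threshold, but RPT3 was called higher by DESeq2 (DESeq2 adjusted p = 0.00459) and without atg1 replicate 3 (edgeR adjusted p = 0.0299).

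RPT6 (YGL048C, chromosome VII, 410069 to 411286, minus strand), another of the ring ATPases, had 245, 231, 227 and 232 CPM in WT and 223, 248, 249 and 261 CPM in atg1, which overlapped. It had 330, 316, 359 and 328 CPM in atg41, all above the other 8 libraries. The rise over WT was 0.51 ± 0.06 on the log2 scale (edgeR adjusted p = 3.47e-06). RPT5 rose by 0.44 ± 0.04 (edgeR adjusted p = 7.62e-07). These 3 ATPases kept their calls under every alternative, and the other 3 had much smaller values. RPT2 was at 0.15 ± 0.05 (edgeR adjusted p = 0.0229), RPT4 at 0.12 ± 0.05 (edgeR adjusted p = 0.0453) and RPT1 at 0.12 ± 0.05 (edgeR adjusted p = 0.0567). With equal library totals the log2 fold changes were 0.01 for RPT2, -0.02 for RPT4 and -0.01 for RPT1, and none of the 3 was called.

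Among the other base subunits and the ubiquitin receptors, RPN10 showed the highest log2 fold change of the 33 genes. RPN10 (YHR200W, chromosome VIII, 499079 to 499885, plus strand) encodes a receptor that binds ubiquitin chains on substrates. It had 143, 129, 117 and 130 CPM in WT, 156, 153, 136 and 161 CPM in atg1 and 194, 186, 213 and 203 CPM in atg41. The atg41 libraries lay above all others, and WT and atg1 overlapped in 1 library each. The log2 fold change was 0.61 ± 0.07 in atg41 (edgeR adjusted p = 2.57e-06), or 1.53-fold, and 0.22 ± 0.07 in atg1 (edgeR adjusted p = 0.0912). The atg1 value of RPN10 was called by DESeq2 (DESeq2 adjusted p = 0.0304) and without atg1 replicate 3 (edgeR adjusted p = 0.0345). RPN1, the scaffold on which shuttle receptors dock, rose by 0.31 ± 0.05 in atg41 (edgeR adjusted p = 0.000139). RPN13, a further ubiquitin receptor, was at -0.07 ± 0.06 (edgeR adjusted p = 0.283), and RPN2, the scaffold that holds Rpn13, at -0.26 ± 0.12 (edgeR adjusted p = 0.0734). RPN2 rested on single libraries: it was -0.39 (edgeR adjusted p = 0.00484) without atg41 replicate 2 and -0.13 (edgeR adjusted p = 0.158) without atg41 replicate 3. With equal library totals it was -0.39 and called (edgeR adjusted p = 0.0202).

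The lid had 3 of 8 members higher and 1 lower in atg41 than in WT, beside 29.9% and 35.9% of all genes. RPN6 and RPN7, both structural subunits, each rose by 0.36 on the log2 scale (SE 0.05 and 0.06, edgeR adjusted p = 8.73e-06 and 5.33e-05). RPN3 rose by 0.18 ± 0.06 (edgeR adjusted p = 0.00951), a call that was lost with equal library totals, where it was at 0.05. RPN8 (YOR261C, chromosome XV, 815915 to 816931, minus strand), the inactive partner of Rpn11, fell. It had 182, 178, 203 and 174 CPM in WT, 175, 163, 175 and 155 CPM in atg1 and 148, 163, 105 and 139 CPM in atg41. The atg41 libraries lay below all WT libraries but overlapped those of atg1. The log2 fold change was -0.41 ± 0.11 (edgeR adjusted p = 0.00384), and -0.30 (edgeR adjusted p = 0.00310) without atg41 replicate 3, the lowest library.

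RPN11, the zinc-dependent deubiquitinase, was not called in either strain. Its log2 fold change was -0.15 ± 0.07 in atg41 (edgeR adjusted p = 0.0672) and -0.14 ± 0.07 in atg1 (edgeR adjusted p = 0.252). With equal library totals the atg41 value was -0.29 (edgeR adjusted p = 0.00984), where it was called. Leaving out 1 library gave RPN11 values from -0.22 (edgeR adjusted p = 0.00706, without atg41 replicate 2) to -0.09 (edgeR adjusted p = 0.210, without atg41 replicate 3), and RPN11 was also called without atg1 replicate 1 (edgeR adjusted p = 0.0441) or atg1 replicate 3 (edgeR adjusted p = 0.0462). The remaining lid genes RPN5, RPN9 and RPN12 were at -0.01, 0.12 and -0.06 in atg41, with RPN9 turning negative under equal library totals and RPN5 and RPN12 turning positive once the trend with GC content and length was removed.

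In the alpha ring, which gates the core, 3 of 7 genes rose and 2 fell in atg41, beside 29.9% and 35.9% of all genes. PRE5 rose by 0.47 ± 0.06 (edgeR adjusted p = 6.64e-06) and PRE10 by 0.33 ± 0.05 (edgeR adjusted p = 3.73e-05). SCL1 was at 0.11 ± 0.05 (edgeR adjusted p = 0.0422), lost its call under most alternatives and turned to -0.02 with equal library totals. PRE9, the one subunit of the core that yeast can do without, fell by 0.23 ± 0.04 (edgeR adjusted p = 0.000417).

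PUP2 (YGR253C, chromosome VII, 998358 to 999140, minus strand) was the other alpha gene that fell. It had 229, 213, 238 and 216 CPM in WT, 210, 222, 229 and 223 CPM in atg1 and 176, 207, 112 and 181 CPM in atg41. All 4 atg41 libraries lay below the other 8, and replicate 3 lay far below the rest. The log2 fold change was -0.41 ± 0.14 (edgeR adjusted p = 0.0205). Without atg41 replicate 3 it was -0.25 (edgeR adjusted p = 0.00429), and with only the WT and atg41 libraries in the fit it was -0.38 (edgeR adjusted p = 0.105), where the call was lost.

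The beta ring, which holds the cutting sites, had 3 of 7 genes higher and 1 lower in atg41, beside 29.9% and 35.9% of all genes. The catalytic subunits are PRE3, PUP1 and PRE2. PRE3 was at 0.18 ± 0.06 (edgeR adjusted p = 0.0132), PRE2 at 0.18 ± 0.05 (edgeR adjusted p = 0.00504) and PUP1 at 0.05 ± 0.05 (edgeR adjusted p = 0.365). With equal library totals the 2 that had been called were both at 0.04 and were not called, PRE4, the third called gene, was at 0.00, and PUP1 turned negative. The non-catalytic PUP3 (YER094C, chromosome V, 348729 to 349346, minus strand) fell. It had 144, 132, 134 and 138 CPM in WT, 140, 137, 133 and 150 CPM in atg1 and 104, 110, 106 and 109 CPM in atg41. The atg41 libraries lay close together and below the other 8, and the log2 fold change was -0.35 ± 0.05 (edgeR adjusted p = 2.15e-05).

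**Figure D3:**
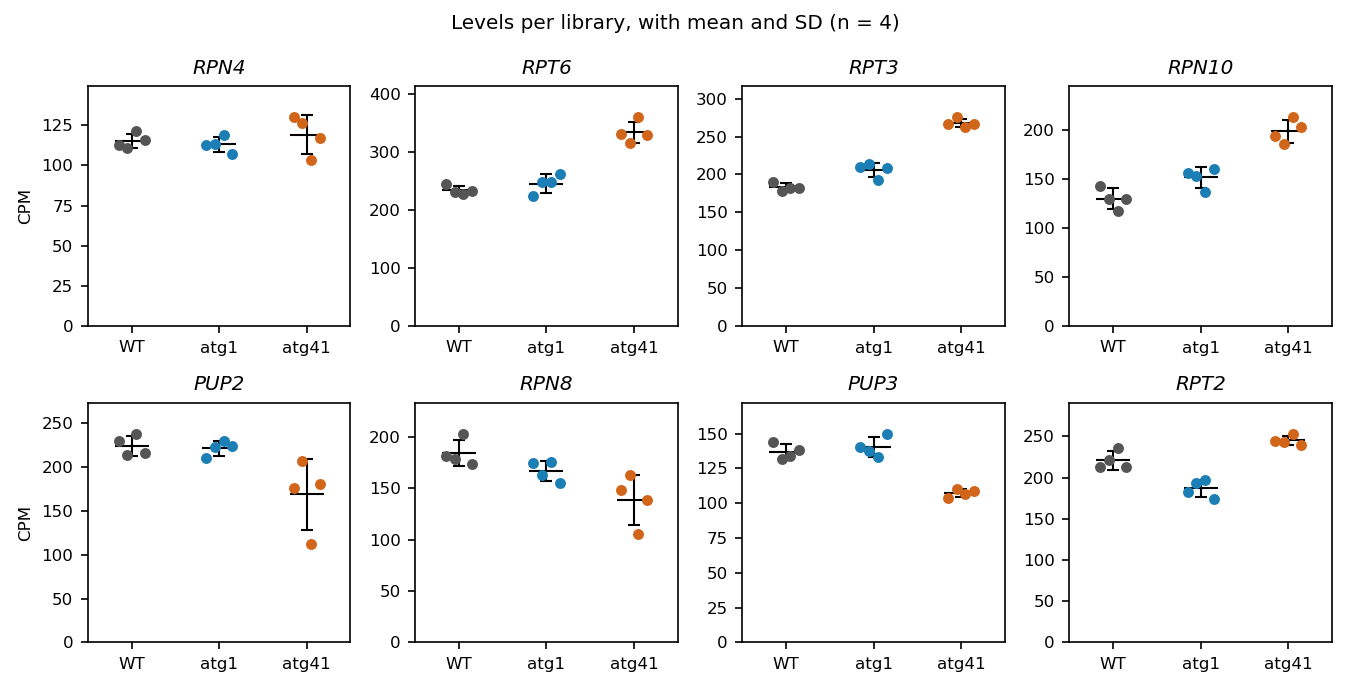
CPM in each of the 12 libraries for RPN4, for the 3 genes with the largest rise and the 3 with the largest fall in atg41, and for RPT2, with mean and SD as black bars (n = 4). RPT6, RPT3 and RPN10 lie above the other strains in all 4 atg41 libraries and PUP3 below them, while PUP2 and RPN8 are spread in atg41 from 112 to 207 and from 105 to 163 CPM.

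A few genes were unevenly expressed among the atg41 libraries. The coefficient of variation over 4 libraries had a median of 3.68% in WT, 4.16% in atg1 and 4.08% in atg41 for the 33 genes. No gene passed 15% in WT or atg1, and 3 did in atg41: PUP2 (23.9%), RPN2 (22.2%) and RPN8 (17.7%). RPN2 had 358, 368, 354 and 357 CPM in WT and 296, 377, 215 and 311 CPM in atg41. In each of these 3 genes atg41 replicate 3 was the lowest library and replicate 2 the highest, and RPN11, at 131, 152, 115 and 135 CPM in atg41, was ordered at its ends in the same way. Over the 33 genes, the median log2 CPM of replicate 3 relative to the WT mean was 0.12, beside 0.10 to 0.15 in the other atg41 libraries. Its values were the most spread, from -1.0 to 0.72, where the lowest gene of each other atg41 library was at -0.41 to -0.31 and the highest at 0.58 to 0.65. This pattern was found by looking at the values, and what sets these genes apart was not tested.

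Levels between genes were compared with TPM, which are per transcript length. In WT they ran from 68.7 ± 4.0 TPM (SD, n = 4) for RPN4 to 352 ± 1.8 TPM for SCL1, a 5.12-fold range. The 14 core subunits had 177 to 352 TPM with a median level of 250 TPM. The 18 subunits of the regulatory particle had 93.3 to 302 TPM, with RPN1 lowest and RPT1 highest, and a median of 163 TPM. The median of all genes tested was 42.7 TPM, and even RPN4 was above 67.2% of them. Ordered by level, 24 of the 32 neighbouring pairs overlapped in their 4 WT libraries, so most places in the order are not resolved.

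**Figure D4:**
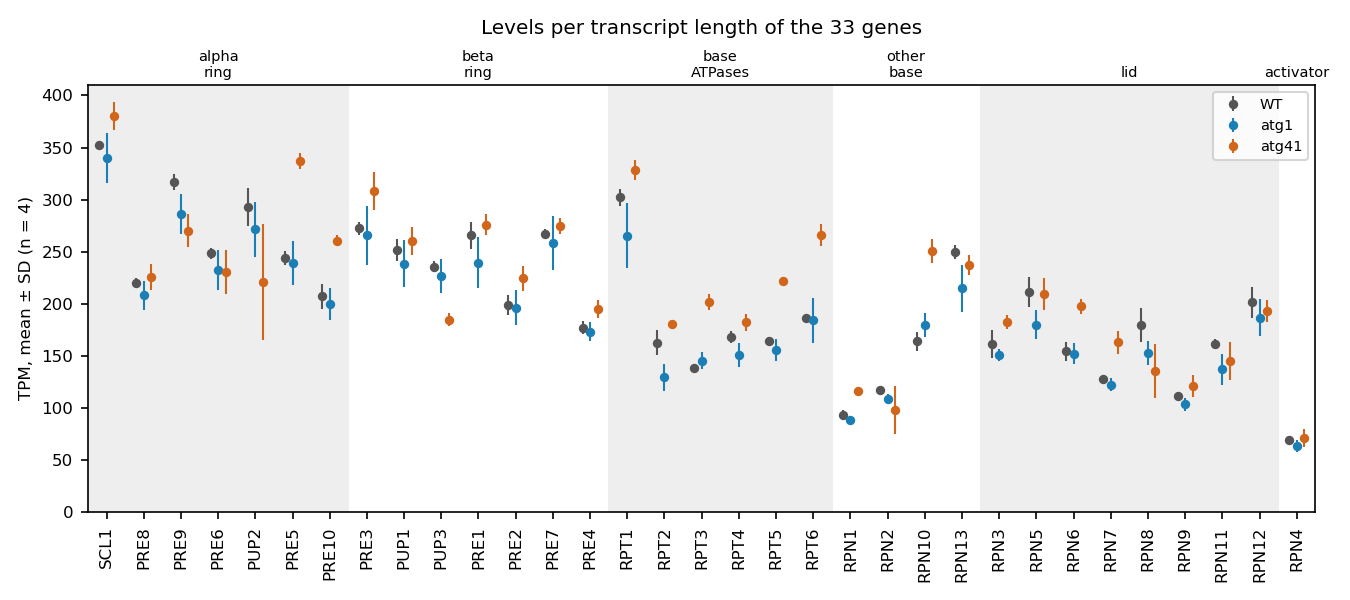
Mean TPM ± SD (n = 4) of the 33 genes in the 3 strains. RPN4 is lowest in WT at 68.7 TPM and SCL1 highest at 352 TPM, and core subunits are in general above regulatory-particle subunits.

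In atg41 the highest and lowest genes were the same, SCL1 at 380 TPM and RPN4 at 71.2 TPM. PUP3 fell from 236 ± 5.1 TPM to 185 ± 6.4 TPM and had the lowest mean of the core subunits. PRE4, which held that place in WT at 177 TPM, was at 194 ± 8.6 TPM in atg41. The SDs of these 2 genes overlapped in atg41, so their order there is not resolved. RPT3, the lowest of the ATPases in WT at 138 ± 2.8 TPM, reached 201 ± 7.7 TPM in atg41, above RPT2 at 180 ± 2.4 TPM and RPT4 at 182 ± 8.1 TPM. The 6 ATPases ran from 138 to 302 TPM in WT and from 180 to 328 TPM in atg41. The coding sequences of the 33 genes had a median length of 867 bp and a median GC content of 41.0%, beside 1239 bp and 39.8% for all genes tested. No coding sequence of the 33 overlapped another R64 gene or shared a 50-base word with another place in the R64 genome. The 674 counted features without an R64 match were not part of the overlap check.

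Deletion of ATG1 changed these genes much less. In atg1 against WT, 1 of 33 genes was called (3.03%), beside 3.73% of all genes tested (0.387% higher and 3.34% lower). That share was near the background. An unadjusted edgeR p under 0.05 was reached by 5 of the 33 genes, beside 1313 of all 6195 genes tested. The median log2 fold change was 0.01, beside -0.01 for all genes. This comparison and that of atg41 use the same WT libraries, so their values are not independent. The authors' deposited table for atg1 against WT called none of the 33 genes at a false discovery rate under 0.05, beside 4.81% of its genes. DESeq2 called 3, RPT2 lower and RPT3 and RPN10 higher. The share of all genes that DESeq2 called is not given here, so its count has no background beside it.

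The gene called in atg1 was RPT2 (YDL007W, chromosome IV, 438047 to 439360, plus strand), the ATPase whose tail opens the gate of the core. It had 213, 222, 236 and 212 CPM in WT, 183, 194, 197 and 174 CPM in atg1 and 244, 244, 253 and 240 CPM in atg41. The 3 strains did not overlap, with atg1 lowest and atg41 highest. RPT2 fell by 0.24 ± 0.05 on the log2 scale in atg1 (edgeR adjusted p = 0.0264), and the adjusted p over alternatives ran from 0.00251 to 0.0951. The call was lost without WT replicate 2 (0.0715), WT replicate 3 (0.0951), atg1 replicate 2 (0.0610) or atg1 replicate 4 (0.0890), and held without atg1 replicate 1, the library that stood apart (0.0167), all edgeR adjusted p-values. Leaving out atg1 replicate 3 raised the count of called genes to 3, with RPT3 and RPN10 added.

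The 2 deletion strains were also compared directly. In atg41 against atg1, 18 of 33 genes were called (54.5%), beside 63.9% of all genes. Of these 14 (42.4%) were higher in atg41, beside 31.0%, and 4 (12.1%) lower, beside 33%. All 6 ATPases were higher in atg41, from 0.18 ± 0.05 for RPT4 (edgeR adjusted p = 0.00513) to 0.44 ± 0.06 for RPT6 (edgeR adjusted p = 1.46e-05), and RPT2 was at 0.39 ± 0.05 (edgeR adjusted p = 1.97e-05). The 4 lower genes were PRE9, PUP2, PUP3 and RPN8, the genes that were lower than in WT. In this comparison RPN8 was at -0.26 ± 0.11 (edgeR adjusted p = 0.0412) and lost its call under 10 alternatives, being at -0.15 without atg41 replicate 3 (edgeR adjusted p = 0.0830). PUP2 was at -0.39 ± 0.14 (edgeR adjusted p = 0.0263) and lost its call under 5, and without atg41 replicate 3 it was at -0.24 and called (edgeR adjusted p = 0.00715). With equal library totals, 11 of the 33 genes were called higher and 4 lower in this comparison. The median was then 0.06 for the 33 genes and -0.06 for all genes. The share of all genes called with equal totals is not given here. The authors' deposited tables called 22 of the 33 genes in atg41 against WT (18 higher, 4 lower), beside 68.3% of all genes. Of the 6186 genes in that table, 2051 were called higher and 2173 lower. In atg41 against atg1 the authors called 12 of the 33 genes (10 higher, 2 lower), beside 55.9% of all genes. Of the 6181 genes there, 1644 were called higher and 1810 lower.

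The other genes of the pathway were read from 5 lists with 38 members in all, each tested. In atg41 against WT 27 of them were called (71.1%, beside 65.9% of all genes), 19 higher (50%, beside 29.9%) and 8 lower (21.1%, beside 35.9%). In atg1 against WT none was (beside 3.73%), and DESeq2, whose share of all genes is not given here, called none either. In that comparison 7 had an unadjusted p under 0.05 in edgeR, beside 1313 of all 6195 genes tested. Both shares of called genes were near the background. With equal library totals 12 were called higher and 10 lower in atg41. The shares of all genes given beside the pathway lists are those with TMM factors, not with equal totals. Equal totals also moved the all-gene median in atg41 from -0.04 to -0.17. Differences between the 2 scalings are therefore not results particular to these lists. Of 9 assembly chaperones, 6 rose (66.7%, beside 29.9% of all genes) and none fell (beside 35.9%), while with equal library totals 2 rose and 1 fell. ADD66, which helps to form the alpha ring, rose by 0.54 ± 0.06 (edgeR adjusted p = 1.26e-06), and UMP1, which guides maturation of the core, by 0.46 ± 0.08 (edgeR adjusted p = 0.000282). Of the 9 windows, none held GGTGGCAAA.

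Of 7 associated proteins and other caps, 3 rose (42.9%, beside 29.9% of all genes) and 1 fell (14.3%, beside 35.9%), while with equal library totals 2 rose and 1 fell. SPG5, which is needed for proteasome function in stationary phase, had 112, 104, 105 and 117 CPM in WT, 89.6, 113, 110 and 136 CPM in atg1 and 314, 335, 339 and 319 CPM in atg41. WT and atg1 overlapped and atg41 lay above both, with a rise over WT of 1.57 ± 0.09 on the log2 scale (edgeR adjusted p = 4.06e-09). ECM29, which tethers core and regulatory particle, rose by 0.84 ± 0.05 (edgeR adjusted p = 1.74e-09). SEM1, a small lid protein outside the 33 genes, fell by 0.70 ± 0.10 (edgeR adjusted p = 2.33e-05). Its WT libraries had 55.0, 60.7, 59.3 and 49.7 CPM and its atg1 libraries 45.5, 44.9, 47.2 and 42.2 CPM, so the 3 strains did not overlap. The log2 fold change in atg1 was -0.32 ± 0.10 (edgeR adjusted p = 0.0862). Its atg41 libraries had 36.5, 40.6, 27.4 and 33.3 CPM, with replicate 3 again lowest and replicate 2 highest.

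The 8 regulators of RPN4 and of Rpn4 turnover moved in both directions, 2 higher (25%, beside 29.9% of all genes) and 3 lower (37.5%, beside 35.9%), or 2 and 4 with equal library totals. MUB1 and UBR2 encode partners in the ubiquitin ligase that marks Rpn4 for degradation. MUB1 fell by 0.64 ± 0.09 (edgeR adjusted p = 2.44e-05) and UBR2 rose by 0.53 ± 0.10 (edgeR adjusted p = 0.000237). YAP1, an activator of RPN4, fell by 0.30 ± 0.06 (edgeR adjusted p = 0.000358).

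Of 12 genes for ubiquitin, its activation and delivery of substrates, 7 rose (58.3%, beside 29.9% of all genes) and 3 fell (25%, beside 35.9%), or 5 and 3 with equal library totals. The 3 that fell encode ubiquitin fused to a ribosomal protein. RPL40B fell by 0.99 ± 0.17 (edgeR adjusted p = 0.000245) and RPS31 by 0.94 ± 0.22 (edgeR adjusted p = 0.00240). UBI4, the stress-induced gene of ubiquitin repeats, rose by 0.37 ± 0.08 (edgeR adjusted p = 0.000737), CDC48, the segregase that extracts tagged proteins, by 0.50 ± 0.06 (edgeR adjusted p = 7.29e-06), and UBA1, the activating enzyme, by 0.40 ± 0.05 (edgeR adjusted p = 1.19e-05). Of the 50-base words in UBI4 and RPL40B, 18.2% and 14.2% occur more than once in the genome. Repeats within the same gene count too, so how far the assignment of reads between genes is affected is uncertain. In atg1 the ubiquitin fusion genes were high in the library that stood apart: RPS31 had 1941 CPM in replicate 1 and 867 to 1078 CPM in the other 3.

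Of the 2 genes tied to autophagy of proteasomes, CUE5, a receptor that links ubiquitin-tagged proteasomes to the forming autophagosome, rose by 0.61 ± 0.06 (edgeR adjusted p = 9.93e-07). UBP3, a deubiquitinase, fell by 0.56 ± 0.06 (edgeR adjusted p = 3.22e-06). In atg1 CUE5 was at 0.00 ± 0.06 (edgeR adjusted p = 0.991) and UBP3 at -0.18 ± 0.06 (edgeR adjusted p = 0.125).

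The changes in atg41 were then set beside the control element. Of the 27 proteasome genes with the 9 letters, 14 were higher and 3 lower, with a median log2 fold change of 0.12, and of the 6 without them 2 were higher and 1 lower. Outside the 33 genes 72 windows held the element, 11 of them through a site shared with a proteasome gene. Of the 69 such genes that were tested, 32 (46.4%) were higher and 16 (23.2%) lower in atg41, with a median of 0.17, beside 29.9% and 35.9% of all genes. Of the 59 with a site of their own, 30 (50.8%) were higher and 13 (22.0%) lower, with a median of 0.22. With the 8-letter form, 112 genes outside the 33 were tested, 46 were higher, 28 lower, and the median was 0.08.

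The members of the pathway lists with the element were CDC48, ECM29, UBA1, UBI4 and YAP1, of which the first 4 rose and YAP1 fell. The element lay 137 bases before the start codon of CDC48, 127 before that of ECM29, 125 before that of UBA1, 156 before that of UBI4 and 42 before that of YAP1. ECM29, with the largest rise of these, and YAP1, the only one that fell, are shown with the 9 letters in capitals, in R64.
ECM29, chrVIII:39943-39971, plus strand: gccttttcttGGTGGCAAAaaaaaggtac
YAP1, chrXIII:253792-253820, minus strand: aaacgttttgGGTGGCAAAaaacttccct

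**Figure D5:**
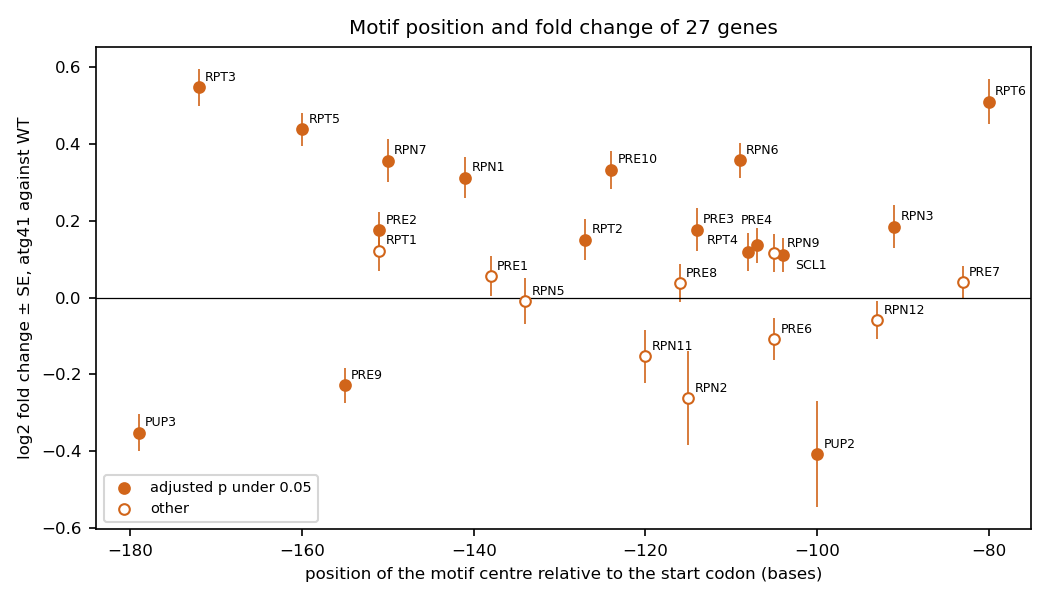
Log2 fold change ± SE in atg41 against WT (n = 4 libraries per strain) of the 27 proteasome genes with GGTGGCAAA against the position of the motif centre in bases from the start codon. Filled points had an adjusted p under 0.05. RPT6, with the nearest motif at 80 bases, and RPT3, at 172 bases, both rose, and PUP2 at 100 bases and PUP3 at 179 bases both fell, so high and low values occur at both ends of the range.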

How the data were processed

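Poly-A RNA from 12 libraries of zinc-deficient yeast, 4 per strain, was sequenced as single-end 100 bp reads from TruSeq v2 libraries, a kit that does not mark strand. The submitters' processing notes name BWA, STAR, RSEM and edgeR. The sources used here give neither their versions and roles nor the genome build and annotation. Deposited by the authors were expected counts, TPM and FPKM per gene, and comparison tables with a log2 fold change and a false discovery rate (an adjusted p-value) per gene. In these deposited tables the sign was set by the deleted gene. Another 12 value columns correspond to none of these samples and were left out. Expected counts, 18.4% of them not whole, were rounded.

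Counts were tested in edgeR 4.0.16 (R 4.3.3) with TMM factors, filterByExpr (minimum count 10, total 15) and the robust quasi-likelihood F test, with strain as the only term in 1 model of all 12 libraries. P-values are two-sided, adjusted by Benjamini-Hochberg over 6195 genes, with 0.05 as the threshold. The common biological coefficient of variation was 9.37%. SE was obtained from the log2 fold change and F, as their quotient after the square root of F was taken. The procedure was run on simulated counts in which few genes changed, in both directions. That simulation cannot check the scaling in atg41 against WT, where 65.9% of genes were called. CPM were scaled by TMM, and deposited TPM were used between genes. The alternatives were DESeq2 size factors, equal library totals, no filter, DESeq2 1.42.0, the 2 strains alone, a replicate block, removal of each library's trend with GC content and coding length (loess, span 0.5), that with the block, each library left out, FPKM in place of TPM, and an 8-letter motif.

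Coordinates and sequences are those of RefSeq R64, matched by gene identifier, which 674 of 6660 features lacked. The files do not name their build. The 33 genes and the lists were chosen with earlier results of these data known. Values by library are given for RPN4, for the 3 largest rises and the 3 largest falls called in atg41 against WT and for genes called in atg1 against WT. Of each pathway list the 2 largest called changes are named. Others (RPN2, RPN11, SEM1, SPG5 and RPS31 by library, YAP1, UBI4, UBA1 and CDC48) were chosen after their values or motifs were seen.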

Additional observations from a re-analysis of the deposited data

Results flagged for a closer look

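Of 141 groups of 4 libraries examined, 8 had 1 library separated from the other 3 by more than the critical share of their range in Dixon's test, and chance gives about 1 in 20. PRE7 had 181 CPM in atg1 replicate 1, the library that stands apart in that strain, and 196 to 197 CPM in the other atg1 libraries. PRE4 had 158 CPM in atg41 replicate 1 and 150 to 151 CPM in the others. RPN3 and RPN12 were both high in WT replicate 3, RPN3 at 289 CPM against 255 to 259 CPM and RPN12 at 176 CPM against 157 to 160 CPM. Without WT replicate 3 the calls of SCL1, PRE3, PRE4 and RPT4 in atg41 against WT were lost. WT replicate 3 was not alone in this. Without WT replicate 4 those of SCL1, PRE4, RPT2 and RPT4 were lost, and 16 genes were called in either case.

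Among the pathway genes, ADD66 had 84.7 CPM in atg41 replicate 4 and 97.3 to 98.6 CPM in the others. ECM29 had 84.0 CPM in WT replicate 2 and 90.0 to 91.0 CPM in the others. RPL40B had 505 CPM in atg1 replicate 1 and 274 to 312 CPM in the others. YAP1 had 155 CPM in atg41 replicate 1 and 140 to 143 CPM in the others.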

How the results depend on the processing

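Counts and medians of the 33 genes were recomputed under each alternative in all 3 comparisons. Single genes are given for all 33 in atg41 against WT and for 8 (RPN4, RPT2, RPT3, RPT6, RPN8, RPN10, PUP2 and PUP3) in the other comparisons. Of the 20 calls in atg41 against WT, 12 held under every alternative and 15 in every fit that left out 1 library, as did 13 of 18 in atg41 against atg1 under every alternative and 0 of 1 in atg1 against WT. The count of called proteasome genes ran from 18 to 23 in atg41 against WT (16 to 23 with 1 library left out) and from 15 to 23 in atg41 against atg1 (16 to 21). In atg1 against WT it was 1, but 3 with DESeq2, 0 with only the 2 strains, 0 with the trend removed and the replicate block, and 0 to 3 with 1 library left out. The count of called pathway genes in atg1 against WT was 0, 1 with equal library totals and 0 to 3 with 1 library left out (3 without atg1 replicate 3). The median of the 33 genes in atg41 against WT was 0.15 with DESeq2 size factors, 0.15 with DESeq2, -0.02 with equal totals, 0.17 with the GC and length trend removed, 0.17 with that and the block, 0.14 with only the 2 strains and 0.10 to 0.12 with 1 library left out. In atg1 against WT it was -0.074 with equal totals and -0.011 to 0.010 with 1 library left out. In atg41 against atg1 it was 0.06 with equal totals, 0.16 with the trend removed, 0.16 with the block added and 0.092 to 0.13 with 1 library left out. Signs reversed in atg41 against WT with equal totals for SCL1 (-0.024), PRE8 (-0.097), PUP1 (-0.086), PRE1 (-0.080), PRE7 (-0.097), RPT1 (-0.014), RPT4 (-0.018), RPN9 (-0.019) and RPN4 (-0.084), and in atg1 against WT, among the 8, for PUP3 (-0.046) and RPT6 (-0.011). Over all 33 genes, equal totals reversed 15 in atg1 against WT and 3 in atg41 against atg1, the trend removal 11 and 2, and DESeq2 5 and 2. With the trend removed, without and with the block, they reversed for RPN13 (0.12 and 0.12), RPN5 (0.12 and 0.12) and RPN12 (0.069 and 0.069) in atg41, and for PUP2 (0.011 and 0.0085), PUP3 (-0.019 and -0.020) and RPN4 (0.035 and 0.034) in atg1. RPN5 in atg41 was 0.022 with DESeq2 size factors, 0.022 with DESeq2 and 0.016 with only the 2 strains, and PUP2 in atg1 was 0.0023 and 0.0022 with the first and the second of these. With 1 library left out PRE8 ran from -0.0028 to 0.059 and RPN5 from -0.043 to 0.041 in atg41, and PUP2 from -0.051 to 0.0066 in atg1. The cause was not tested, except that equal totals shift every gene alike. Replicate numbers were shared by the strains. Deviations of same-numbered libraries correlated at -0.17 to 0.16 and those of different-numbered ones at -0.15 to 0.21, so no strong shared effect of the number was seen. These correlations cannot show whether same-numbered samples were handled together. With the replicate block 18 genes were called in atg41 against WT, 1 in atg1 against WT and 17 in atg41 against atg1. The highest and lowest WT levels differed 5.12-fold in FPKM too. Within a library the 2 units differ by a constant factor, so this ratio could hardly change and is no check of it.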
